A study of Arabidopsis thaliana with 12 samples.

Results

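The cytosolic ribosome of Arabidopsis thaliana is described here through 56 genes that encode its proteins, chosen by locus ID from the families RPL, RPP0, RPSa and RPS and present in both of the authors' deposited tables, which hold 18366 and 19397 genes. Of the 56 genes, 30 encode proteins of the large (60S) subunit and 26 of the small (40S) subunit, in 31 families. In 20 families at least 2 paralogs are on the list (15 families with 2 members and 5 with 3), and the other 11 families have 1 member. RNA came from whole seedlings of ecotype Col-0, in 4 groups of 3 samples that the design text calls biological. The first pair of groups was pfd4 and wild type (WT), 14 days old, raised in vitro with the label LD and collected at ZT1, with titles that carry the word mock although no treatment is described. The second pair was 6x_pfd and WT, 7 days old and raised in vitro with the label LL. The labels name no allele, and they give the genotypes only as pfd4, 6x_pfd and WT. The question was how the transcript of each ribosomal protein gene differed between each prefoldin mutant and the WT grown with it.

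Each ribosome holds 1 copy of most of its proteins, and these assemble with ribosomal RNA in the nucleolus before the subunits are exported. In Arabidopsis nearly every ribosomal protein is encoded by a small family of paralogs that are expressed at different levels, and the genes as a whole are most active in growing tissue. Prefoldin is a chaperone complex that binds unfolded actin and tubulin and delivers them to the chaperonin of the cytosol.

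All values below come from the authors' deposited tables, which give per gene a mean normalized count over 6 libraries, a log2 fold change of mutant over WT with its standard error (SE, written after ±), and a p-value adjusted over the whole table. A gene was called at an adjusted p below 0.05. Group levels are estimates made from that mean and fold change, so values per replicate and depth per library were not analysed here. The label check held, since PFD4 was lower in pfd4 by the authors' deposited table (-1.99 ± 0.17 on the log2 scale) and PFD1 was lower in 6x_pfd (-7.03 ± 0.42). Of the seedling markers, all 10 photosynthetic genes were in both tables, and of the root markers 5 of 10 in the pfd4 table and 6 of 10 in the 6x_pfd table, with PLT1, PLT2, WOX5 and SMB in neither. In whole seedlings, fewer cells of a type and less RNA per cell cannot be told apart.

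Promoters of plant translation genes often carry a telo box, spelled AAACCCTAA, and site II elements, spelled TGGGCC or TGGGCT, and both were searched on both strands from 250 bases before to 50 bases after each annotated gene start. A palindrome of site II counts as 2 matches. The telo box was found near 19 of the 56 members (33.9%), compared with 3.60% of all 27443 protein-coding genes of the nuclear genome and 3.25% of the 17532 that are in both tables. Site II was found near 44 of the 56 members (78.6%), compared with 21.7% of all protein-coding genes and 26.4% of those in both tables. Both motifs were present near 15 members (26.8%) and near 1.29% of all protein-coding genes. The shorter telo box AAACCCTA, which lies within the full one, was found near 29 members (51.8%) and near 6.22% of all protein-coding genes.

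By subunit, the telo box was near 8 of 30 large subunit members and 11 of 26 small subunit members, while site II was near 26 of 30 and 18 of 26. Of the 110 site II matches, 92 lay before the annotated start, 88 of them within the last 150 bases. Of the 20 telo box matches, 7 lay before the start, and the median position was 13.5 bases after it. A match is a run of letters and does not show that a factor binds there.

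**Figure D1:**
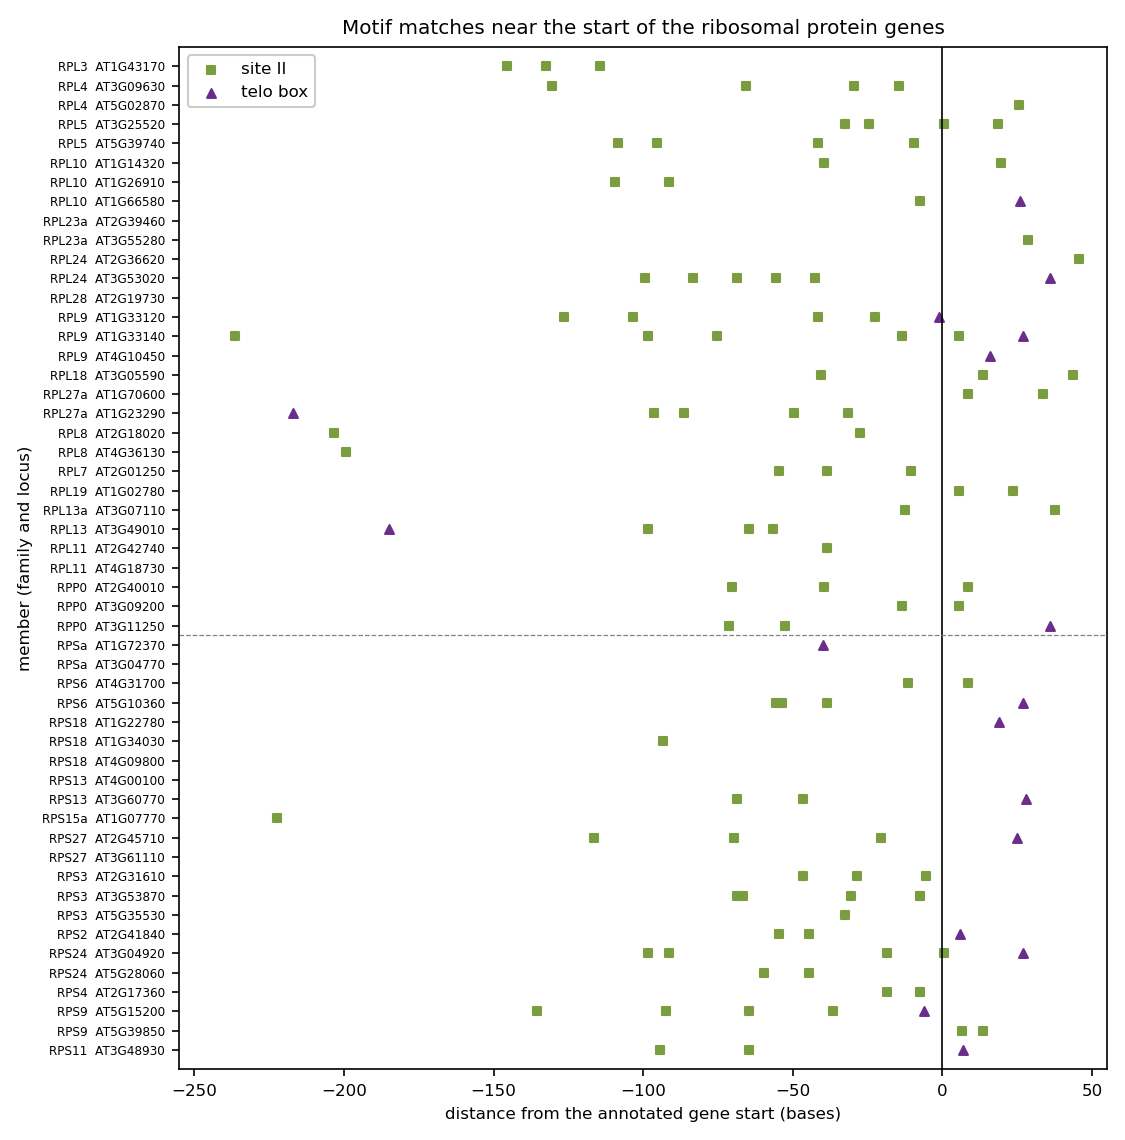
Matches of site II (squares) and of the telo box (triangles) by distance in bases from the annotated gene start, which is the vertical line, for 52 members. The dashed line separates the large subunit (top) from the small subunit. Site II matches lie mostly in the 150 bases before the start, and most telo boxes lie just after it.

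The 250 bases before the start are shown for 2 families as examples, since paralogs of other families differ in these motifs too. In RPS13, for example, RPS13A has no match of either motif in the searched window. Its paralog AT3G60770 has 1 telo box and 2 site II matches, and their gap in fold change in 6x_pfd was 0.05 ± 0.12. Of the 2 families shown, RPL4 and RPS9, only the RPS9 pair has a gap in fold change of over 2 SE in 6x_pfd, described with the paralogs. The RPL4 genes had nearly equal transcript levels and both were called in 6x_pfd, although in these bases AT3G09630 holds 4 site II matches and AT5G02870 none. Of the RPS9 genes, AT5G15200, the abundant paralog, holds 4 site II matches and 1 telo box here, and AT5G39850, the scarce paralog, holds neither. AT5G02870 and AT5G39850 do have site II matches in the 50 bases after the start, as the map of motif matches shows. Sequences are from RefSeq, build TAIR10.1, joined by locus ID, while the submitters' processing notes name TAIR10. They run 5′ to 3′ along the strand of the gene, and capitals mark motif matches on either strand (GGCCCA and AGCCCA are site II, and TTAGGGTTT is the telo box, on the opposite strand). The coordinates are chr3:2953443-2953692 on the plus strand for AT3G09630, chr5:657425-657674 on the plus strand for AT5G02870, chr5:4936430-4936679 on the minus strand for AT5G15200, and chr5:15949660-15949909 on the plus strand for AT5G39850.
AT3G09630: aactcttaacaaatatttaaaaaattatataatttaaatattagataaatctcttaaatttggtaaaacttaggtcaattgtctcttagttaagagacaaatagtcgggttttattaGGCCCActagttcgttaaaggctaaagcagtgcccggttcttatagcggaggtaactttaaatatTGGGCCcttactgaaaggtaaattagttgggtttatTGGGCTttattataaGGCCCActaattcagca
AT5G02870: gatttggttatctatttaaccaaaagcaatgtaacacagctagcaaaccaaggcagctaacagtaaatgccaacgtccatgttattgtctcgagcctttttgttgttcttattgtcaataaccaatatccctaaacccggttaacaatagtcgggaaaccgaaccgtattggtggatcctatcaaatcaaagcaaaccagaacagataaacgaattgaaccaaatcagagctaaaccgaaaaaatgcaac
AT5G15200: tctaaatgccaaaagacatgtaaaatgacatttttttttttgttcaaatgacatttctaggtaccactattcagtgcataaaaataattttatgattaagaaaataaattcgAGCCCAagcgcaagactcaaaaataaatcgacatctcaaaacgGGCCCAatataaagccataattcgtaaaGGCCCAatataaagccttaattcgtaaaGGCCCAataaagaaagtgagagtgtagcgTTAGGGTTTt
AT5G39850: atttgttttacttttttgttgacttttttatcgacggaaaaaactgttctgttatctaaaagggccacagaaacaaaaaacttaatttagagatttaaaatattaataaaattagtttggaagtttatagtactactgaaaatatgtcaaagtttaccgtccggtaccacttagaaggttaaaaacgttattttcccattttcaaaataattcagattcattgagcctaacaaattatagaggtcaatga

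Most of the 56 genes were among the most abundant transcripts of the seedlings. Per kilobase of coding sequence, the mean normalized count reached 34738 in the pfd4 experiment and 27115 in the 6x_pfd experiment. The median member lay at percentile 97.9 of all genes in the first and 97.3 in the second, and 45 and 42 of the 56 members were in the top 5%.

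The highest members were only partly the same genes in both experiments. In the pfd4 experiment the highest members per kilobase included emb2386 of the RPL19 family (34738), AT5G15200 of RPS9 (22327), RPL18 (22150) and ATL5 of RPL5 (21850), by the authors' deposited table. In the 6x_pfd experiment they included emb2386 (27115), AT5G15200 (19125), RP1 of RPL3 (18246) and SAC52 of RPL10 (17645), by the authors' deposited table. In both experiments emb2386 was the highest member.

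The 5 lowest members were the same genes in both experiments, and each of those named here has a paralog on the list that is far more abundant. In the 6x_pfd experiment they included RPSAb of RPSa (267 per kilobase), AT2G40010 of RPP0 (405), RPL10B (627) and AT5G39850 of RPS9 (657), by the authors' deposited table. The abundant paralog exceeded them per kilobase by 46.2-fold in RPSa, 38.9-fold in RPP0, 28.1-fold in RPL10 and 29.1-fold in RPS9. In other families the paralogs were nearly equal, with ratios of 1.04 in RPL4, 1.11 in RPS13 and 1.13 in RPS6.

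In pfd4 seedlings at 14 days, the ribosomal protein genes stayed close to WT. None of the 56 passed the authors' DESeq2 test, while 7.75% of all 18363 genes tested did, 3.94% higher and 3.81% lower. Of the 1168 genes at or above the lower quartile of the members' mean count in pfd4, 6.25% were called higher and 8.82% lower. At an unadjusted p below 0.05 there were 2 members, both lower: RPSAb at -0.42 ± 0.18 (adjusted p = 0.131) and AT3G09630 of RPL4 at -0.17 ± 0.09 (adjusted p = 0.263) by the authors' deposited table. The median log2 fold change was -0.002 over the members and -0.003 over all genes, with 28 members above 0 and 28 below. Large subunit members had a median of -0.002 and small subunit members of -0.006.

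The precision of the pfd4 comparison was high for these genes, with a median SE of 0.086 on the log2 scale. The 95% interval (1.96 SE to each side) lay within a change of 25% in either direction for 45 of the 56 members. The members' fold changes ran from -0.42 in RPSAb to 0.20 ± 0.13 in AT2G40010, in the authors' deposited table. Among the other extremes, AT5G39850 of RPS9 stood at -0.21 ± 0.12 in the authors' deposited table. These members are the scarce paralogs of their families.

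**Figure D2:**
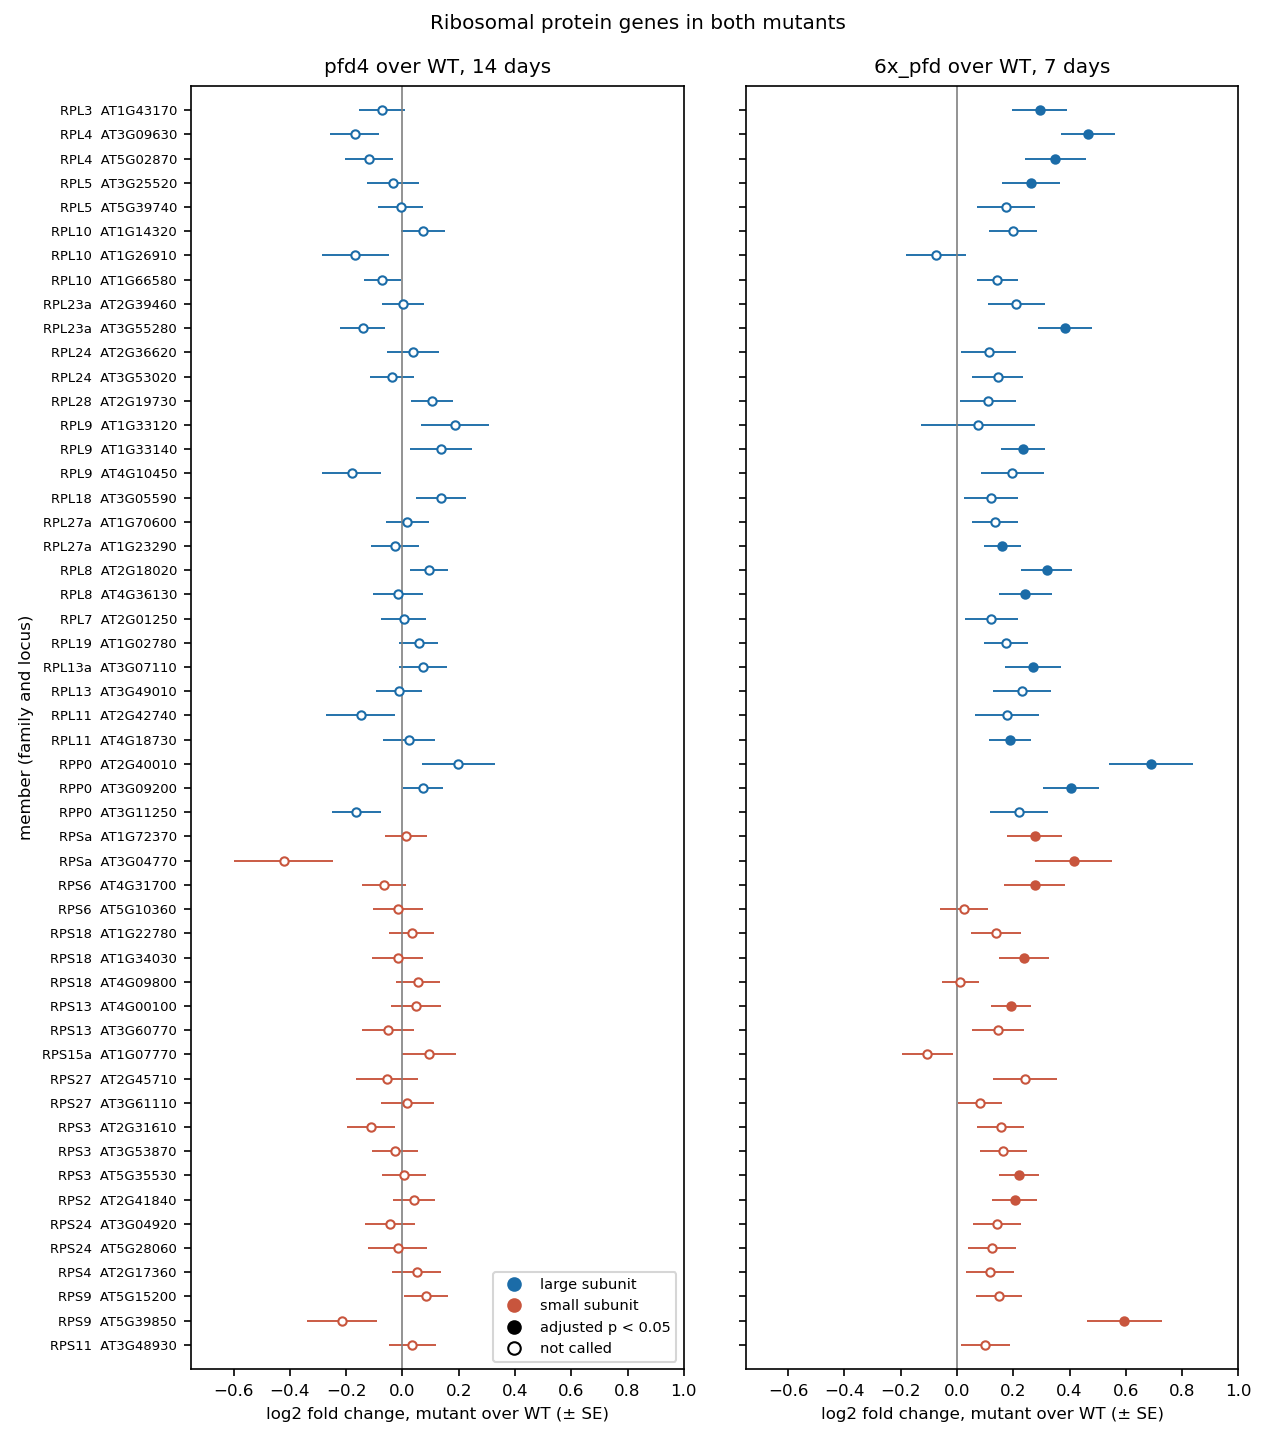
Log2 fold change of mutant over WT with its SE for 52 members, in pfd4 at 14 days (left) and 6x_pfd at 7 days (right), in blue for the large and red for the small subunit. Filled points passed an adjusted p of 0.05, as 21 of those drawn did in 6x_pfd and none in pfd4.

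In 6x_pfd seedlings at 7 days, ribosomal protein genes of both subunits were higher than in WT by small amounts. Of the 56 members, 23 rose and none fell, beside a background of 16.9% of 19380 genes tested called higher and 16.8% called lower (33.6% in either direction). In all, 54 of 56 members lay above 0, and the median log2 fold change was 0.18, or 1.14-fold, beside a median of 0.001 over all genes. The increases of the 23 called members ran from 11.8% to 61.4% with a median of 21.1%, and in pfd4 10 of these 23 lay above 0. The 33 members that were not called lay between -0.11 and 0.24.

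Abundant genes of this table were called more often than others, so the members were also set beside the 1808 genes of the 6x_pfd table at or above the lower quartile of the members' mean count. Of those, 24.9% were called higher and 25.9% lower, with a median log2 fold change of 0.02. Members below that cut were kept in the counts of the 56. By subunit, 13 of 30 large subunit members rose, with a median of 0.20, and 10 of 26 small subunit members rose, with a median of 0.16. The summed estimated level of the large subunit members differed by 0.24 on the log2 scale and that of the small subunit members by 0.16. No test of the difference between the subunits was made. The 56 members together made up an estimated 0.995% of all normalized counts in WT and 1.21% in 6x_pfd. In the other experiment they made up 1.46% in WT and 1.48% in pfd4. In 6x_pfd the members' summed level differed from WT by 0.21 on the log2 scale and the total of all genes by -0.08. The rise in share holds both.

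**Figure D3:**
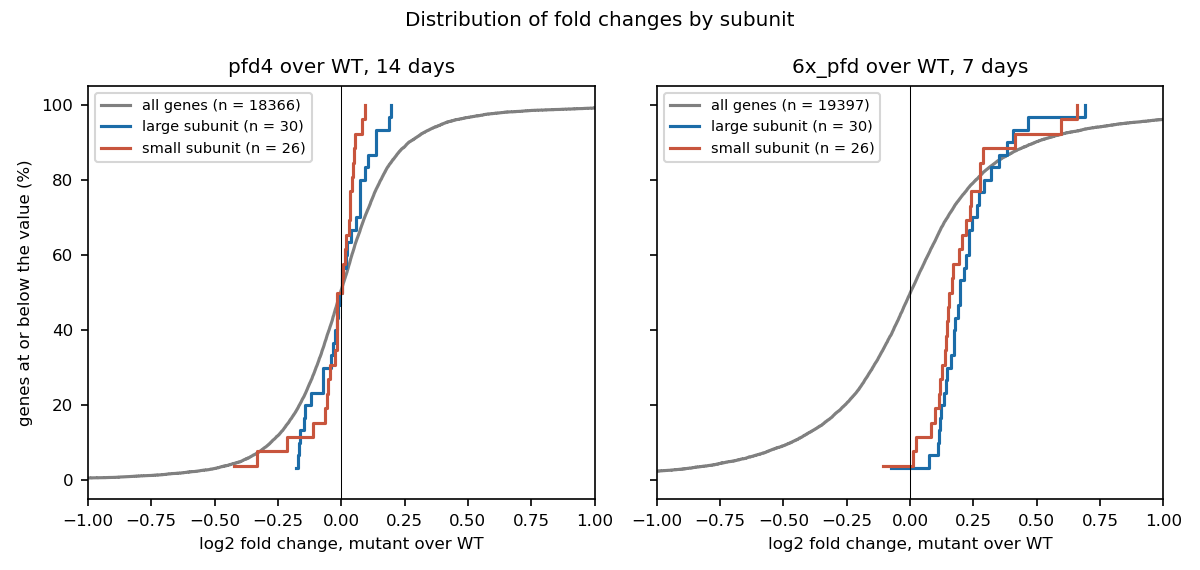
Cumulative share of genes (vertical axis, in percent) at or below a log2 fold change (horizontal axis), for all genes (grey), large subunit members (blue) and small subunit members (red). The members' curves lie to the right of all genes in 6x_pfd, with medians of 0.20 and 0.16, and cross them near 0 in pfd4.

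The count in 6x_pfd depended on how the libraries were scaled and on the size of change required. With fold changes centred on equal group totals, 43 members rose and the whole table split into 4652 genes higher and 2388 lower, in place of 3270 and 3249. None passed a test against a change of 25%, beside 5.05% of all genes called higher, and none changed by 1 or more on the log2 scale.

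Proteins at the core of the large subunit included the gene with the smallest p. RPL4 lines the tunnel through which the new peptide leaves the ribosome. AT3G09630 of RPL4 had an estimated level of 8716 normalized counts in WT and 12027 in 6x_pfd, and rose by 0.46 ± 0.10 (adjusted p = 1.18e-05) by the authors' deposited table. Its paralog AT5G02870, whose promoter is shown above beside it, rose from an estimated 9476 to 12076, by 0.35 ± 0.11 (adjusted p = 0.00553) by the authors' deposited table. The gap between the RPL4 genes was 0.11 ± 0.14, smaller than its SE.

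RPL3 and RPL8 reach towards the centre where peptide bonds are made, and RPL23a sits at the exit of the tunnel. RP1 of RPL3 rose from an estimated 19185 to 23511 normalized counts, by 0.29 ± 0.10 (adjusted p = 0.0121) by the authors' deposited table. EMB2296 of RPL8 rose by 0.32 ± 0.09 (adjusted p = 0.00222), and its paralog AT4G36130 by 0.24 ± 0.09, in the authors' deposited table. RPL23AB rose by 0.38 ± 0.10 (adjusted p = 0.000414) by the authors' deposited table, while the more abundant RPL23AA stood at 0.21 ± 0.10 (adjusted p = 0.0924).

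RPP0 forms the base of the stalk that recruits elongation factors. AT3G09200, which gave 90.3% of the family's transcript per kilobase in WT, rose from an estimated 13036 to 17263 normalized counts, by 0.41 ± 0.10 (adjusted p = 0.000232) by the authors' deposited table. The scarce AT2G40010 rose from an estimated 295 to 477, by 0.69 ± 0.15 (adjusted p = 2.93e-05), the largest change of any member, in the authors' deposited table. Over 1185 bases this gene is overlapped on the opposite strand by the long non-coding RNA gene AT2G40008, and the sources used here do not say whether reads were counted by strand. The third gene, AT3G11250, stood at 0.22 ± 0.10 (adjusted p = 0.0904) by the authors' deposited table.

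The remaining large subunit calls lay between 0.16 and 0.27 on the log2 scale. RPL5 and RPL11 bring 5S ribosomal RNA into the subunit, and of these families ATL5 (0.26 ± 0.10) and RPL16B, as the RPL11 gene AT4G18730 is annotated (0.19 ± 0.07), rose in the authors' deposited table. PGY2 of RPL9, named for its leaf phenotype, rose by 0.23 ± 0.08 (adjusted p = 0.0113) by the authors' deposited table. Its neighbour AT1G33120 shares 99.1% of its coding bases and stood at 0.07 ± 0.20, so the split of reads between them is uncertain. AT3G07110 of RPL13a (0.27 ± 0.10) and RPL27AB (0.16 ± 0.07) also rose in the authors' deposited table, and 801 bases of RPL27AB overlap AT1G23300 on the opposite strand.

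In the small subunit, the proteins that ring the messenger RNA at its entry (RPS2, RPS3 and RPS9, from the structure of their bacterial counterparts) each had 1 gene called. AT5G39850 of RPS9, whose upstream bases are shown above without a motif match, had an estimated level of 311 normalized counts in WT and 470 in 6x_pfd. It rose by 0.59 ± 0.13 (adjusted p = 6.23e-05), while its abundant paralog AT5G15200 stood at 0.15 ± 0.08 (adjusted p = 0.148) by the authors' deposited table. AT5G39850 thus went from an estimated 2.80% to 3.78% of the family's transcript per kilobase. AT5G35530 of RPS3 rose by 0.22 ± 0.07 (adjusted p = 0.00917) and AT2G41840 of RPS2 by 0.20 ± 0.08 in the authors' deposited table.

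RPSa, which is needed in yeast for maturation of the small subunit, was the small subunit family in which both paralogs were called. The abundant P40 rose from an estimated 10007 to 12117 normalized counts, by 0.28 ± 0.10 (adjusted p = 0.0172) by the authors' deposited table. RPSAb rose from 228 to 305, by 0.42 ± 0.14 (adjusted p = 0.00992) by the authors' deposited table, and 132 of its bases overlap AT3G04780 on the same strand. RPSAb was the lowest member in pfd4 and among the highest in 6x_pfd.

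RPS6 is the protein that S6 kinases phosphorylate in the TOR pathway, which couples nutrients to growth. RPS6 (AT4G31700) rose by 0.28 ± 0.11 (adjusted p = 0.0375) by the authors' deposited table, and its paralog EMB3010, of similar abundance, stood at 0.02 ± 0.09. RPS13A (0.19 ± 0.07) and AT1G34030 of RPS18 (0.24 ± 0.09) also rose in the authors' deposited table.

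The members below 0 in 6x_pfd were RPS15A at -0.11 ± 0.09 (adjusted p = 0.401) and RPL10B at -0.07 ± 0.11 (adjusted p = 0.644) by the authors' deposited table, neither called. RPL10B moved to 0.00376 under equal group totals. In RPL10, a protein that joins the large subunit late, none of 3 genes was called, and SAC52 stood at 0.20 ± 0.09 (adjusted p = 0.0602) by the authors' deposited table.

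Paralogs of a family were called together in few cases. Of the 20 families with paralogs, all members rose in 3 (RPL4, RPL8 and RPSa), some in 13 and none in 4, and no family had calls in opposite directions. Wide gaps between paralogs in 6x_pfd were 0.47 in RPP0, 0.45 in RPS9, 0.27 in RPL10 and 0.25 in RPS6. Treating the SEs as independent, 3 of 30 pairs in 6x_pfd had a gap over 2 SE: AT2G40010 above AT3G11250 (0.47 ± 0.18), AT5G39850 above AT5G15200 (0.45 ± 0.16) and AT1G34030 above RPS18C (0.23 ± 0.11). These gaps were not adjusted for the number of pairs, and the paralogs share libraries.

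In each of those 3 pairs the less abundant gene had the higher fold change. Over families, the least abundant paralog had a higher fold change than the most abundant in 14 of 20 families in 6x_pfd and in 5 of 20 in pfd4. In pfd4, 6 of 30 pairs had a gap over 2 SE, and in 1 of these the less abundant gene was the higher.

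Level and change were related with opposite signs in the mutants. Across the 56 members, the log2 mean count per kilobase and the log2 fold change had a Pearson correlation of 0.57 in pfd4 and -0.50 in 6x_pfd (Spearman 0.41 and -0.22), as a description across genes that share libraries. The 7 members with a mean count under 1000 had a median log2 fold change of -0.17 in pfd4 and of 0.42 in 6x_pfd. The other 49 members had medians of 0.005 and 0.17.

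**Figure D4:**
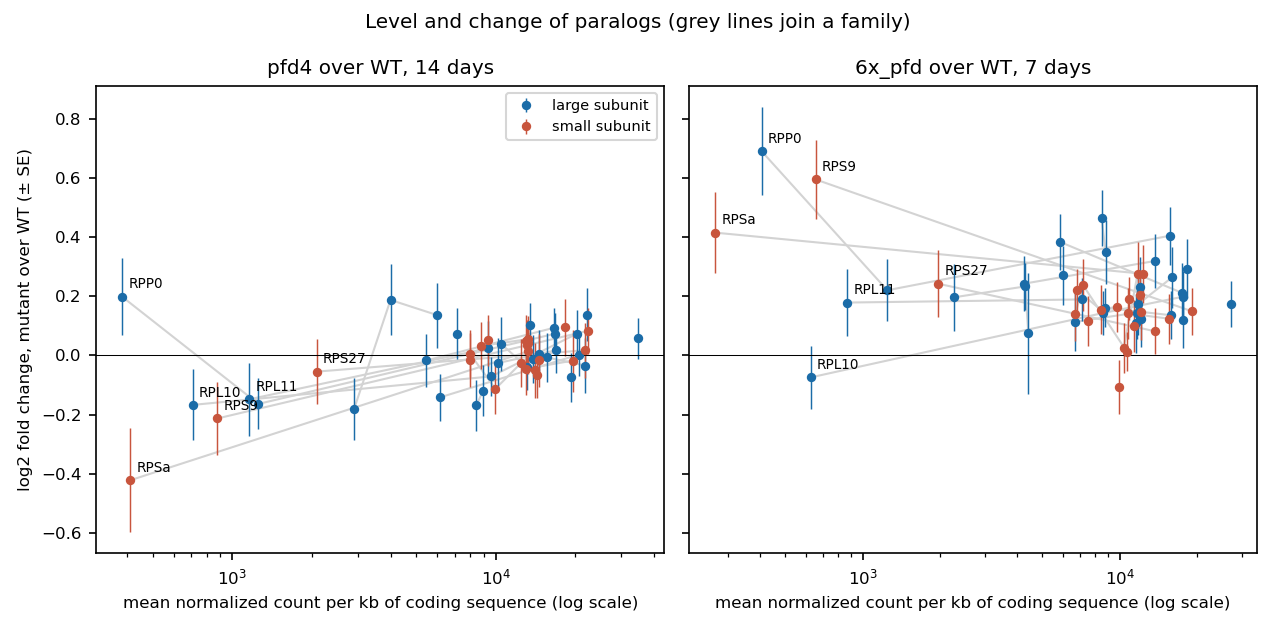
Log2 fold change with its SE (vertical axis) by mean normalized count per kilobase of coding sequence (horizontal axis, log scale) in pfd4 (left) and 6x_pfd (right), with grey lines joining paralogs and family names beside the 6 of the 52 members drawn that have a mean count under 1000. RPSAb is lowest on the left, at -0.42, and AT2G40010 of RPP0 is highest on the right, at 0.69.

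Calls in 6x_pfd occurred among members with and without the promoter motifs. The 19 members with a telo box had a median log2 fold change of 0.15 with 5 called (26.3%), and the 37 without it had 0.19 with 18 called (48.6%). The 44 members with site II had a median of 0.17 with 17 called (38.6%), and the 12 without it had 0.19 with 6 called (50%). Beside these shares, 24.9% of the abundant genes and 16.9% of all genes were called higher. No test of the differences between these shares was made.

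The mutant effects were compared directly by a Wald test of the difference of the fold changes, 6x_pfd minus pfd4, adjusted over 18035 genes, in which genotype, age and light regime cannot be told apart. By this test 10 of 56 members were higher in 6x_pfd and none lower, beside a background of 11.8% higher and 12.0% lower (23.8% in either direction). Of these 10, 9 were called in 6x_pfd itself and 9 lay below 0 in pfd4. The median difference over the members was 0.19, beside -0.004 over all genes. The members' share called higher was 17.9%, beside the 11.8% of all genes in that direction. With fold changes centred on equal group totals, 21 members (37.5%) were called higher, beside 15.8% of all genes, and none lower.

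Both RPL4 genes were among the 10, with differences of 0.63 ± 0.13 (adjusted p = 1.66e-05) for AT3G09630 and 0.47 ± 0.14 (adjusted p = 0.00490) for AT5G02870. The scarce paralogs RPSAb and AT5G39850 differed by 0.84 ± 0.22 (adjusted p = 0.00151) and 0.81 ± 0.18 (adjusted p = 0.000128). For AT2G40010, which lay above 0 in both mutants, the difference was 0.49 ± 0.20 (adjusted p = 0.0524).

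Other genes that the annotation places in the cytosolic ribosome were described by counts. Of 157 such genes, 141 were measured in both tables. In pfd4, 0 rose and 1 fell by the authors' DESeq2 test, with 8 at an unadjusted p below 0.05. In 6x_pfd, 24 rose (17.0%) and 2 fell, with 121 above 0 and a median of 0.12. Their share called higher was near the 16.9% of all genes in that table. The share called lower was 1.42%, beside 16.8% of all genes. Of the 56 members, 41.1% were called higher, and no test of the difference between these shares was made.

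Genes that build the ribosome were called lower in part in pfd4 and called higher for the most part in 6x_pfd. On 3 lists together (nucleolar and snoRNP proteins, assembly and export factors, and RNA polymerase I), 17 of 44 measured genes fell in pfd4 while 0 rose, by the authors' deposited table. That is 38.6%, beside 3.81% of all genes called lower, and the other 27 did not pass. In 6x_pfd, 37 of 45 rose while 0 fell, by the authors' deposited table, which is 82.2% beside 16.9% of all genes called higher. The medians of the nucleolar list were -0.31 and 0.52 in pfd4 and 6x_pfd, and those of the assembly list were -0.27 and 0.35. In pfd4 these lists held calls and the 56 ribosomal protein genes held none.

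Most builders named here were called in both mutants, so they do not span the lists. By contrast, DIM1A stood at 0.14 ± 0.12 in pfd4 and -0.02 ± 0.09 in 6x_pfd, neither called. REIL1 stood at 0.07 ± 0.10 in pfd4, not called, and at 0.42 ± 0.08 in 6x_pfd, called. PRH75, with the smallest p of the assembly list in 6x_pfd, stood at 0.36 ± 0.06 there. In pfd4 PRH75 was at -0.15 ± 0.10 and was not called. APUM24, a Puf protein of pre-ribosomal RNA processing, was at -0.54 ± 0.11 in pfd4 (adjusted p = 3.53e-05) and 0.58 ± 0.11 in 6x_pfd (adjusted p = 2.10e-06) by the authors' deposited table. NRPA1, the largest subunit of RNA polymerase I, was at -0.57 ± 0.12 and 0.43 ± 0.12, and NRPA2 at -0.51 ± 0.13 and 0.40 ± 0.10, in the authors' deposited table. Both were called in each mutant. Of the nucleolins, NUC1 was at -0.29 ± 0.09 and 0.52 ± 0.10, and the scarce NUC2 at -0.48 ± 0.21 (adjusted p = 0.160) and 2.16 ± 0.19 (adjusted p = 2.79e-28) by the authors' deposited table. FIB2, a fibrillarin, was at -0.33 ± 0.09 and 0.62 ± 0.12, CBF5, a pseudouridine synthase, at -0.36 ± 0.10 and 0.62 ± 0.10, and RRP5 at -0.43 ± 0.10 and 0.40 ± 0.11, all called in the authors' deposited table.

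**Figure D5:**
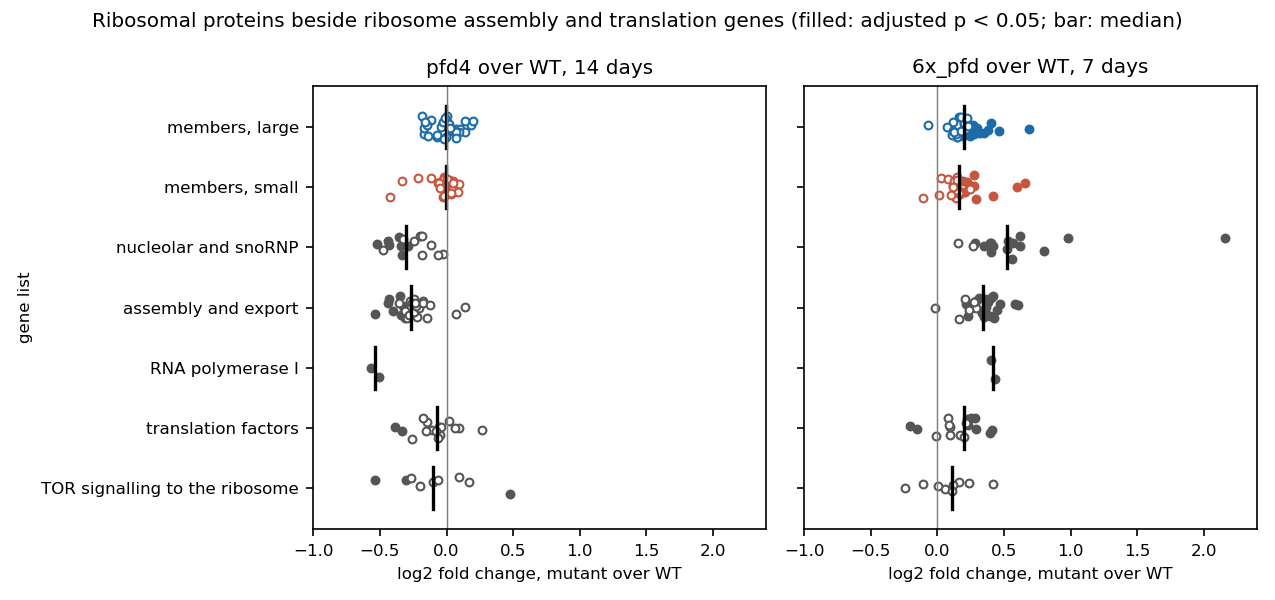
Log2 fold change of each gene (points, filled where the adjusted p was below 0.05) with the list median (bar) for the members by subunit and for 5 gene lists, in pfd4 (left) and 6x_pfd (right). In pfd4 the nucleolar list has a median of -0.31 while both subunits lie near 0.

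The TOR list, which holds the kinases upstream of RPS6, had no call in 6x_pfd. Of 9 genes 0 were called there by the authors' DESeq2 test (3 at an unadjusted p below 0.05), beside 33.6% of all genes. In pfd4, 1 rose (11.1%) and 2 fell (22.2%), beside 3.94% and 3.81% of all genes. S6K1, the kinase of RPS6, was at -0.53 ± 0.12 in pfd4 (adjusted p = 0.000304) and at 0.11 ± 0.11 in 6x_pfd, in the authors' deposited table. MRF1 rose by 0.47 ± 0.09 and EBP1 was lower at -0.30 ± 0.10 in pfd4, in the authors' deposited table.

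Markers of other tissues and states moved in the same comparisons. Over all genes, 16.9% were called higher and 16.8% lower in 6x_pfd, and 3.94% and 3.81% in pfd4. In 6x_pfd, 6 of 10 photosynthetic markers fell and none rose. The summed estimated level of the 10 went from 1516280 normalized counts in WT to 954146. The 6 that fell were all LHCB antenna genes, and no RBCS gene was called in either mutant. In pfd4, 3 of the 10 rose and none fell, and their sum went from 1469690 to 1613970. Of 11 markers of dividing cells, 4 fell in 6x_pfd and 5 in pfd4, and none rose in either, with summed levels of 7146 to 5867 and of 7075 to 5647. Of the root markers, 2 rose and 1 fell in 6x_pfd and 1 fell in pfd4, with summed levels of 5725 to 6048 and of 3783 to 3169. Their part in the change of the ribosomal protein genes was not tested.

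Of the 56 members, 15 overlap another annotated gene, 11 of them on the opposite strand, and 1 pair shares at least 95% of its coding bases. Without these members, 12 of 41 rose in 6x_pfd and 0 in pfd4. The share called higher in 6x_pfd was then 29.3%, down from 41.1%, beside 16.9% of all genes and 24.9% of the abundant genes.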

How the data were processed

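Libraries were made with a stranded mRNA kit from RNA extracted with a plant kit, per the labels' protocols. The submitters' processing notes name cutadapt, HISAT2, HTSeq, DESeq2 and build TAIR10, without versions, roles or order. Per the file headers, the authors deposited the mean normalized count of each gene (a signal on the scale of counts divided by size factors, averaged over all samples of both groups), its log2 fold change and SE, the Wald score and p-values before and after adjustment, for genes past a minimum of 1 RPKM according to the table names. No values per library are in these tables, so the planned count models were not run, and 0 columns of per-sample values were left unused. The p-values rest on the spread between 3 samples per group. Depth limits could not be computed.

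From the deposited values, group levels were estimated so that both groups average to the mean count and differ by the fold change. The difference between mutants was a two-sided Wald test with the SEs combined, Benjamini-Hochberg adjusted over all genes in both tables, and tested on simulated data. Coding lengths, coding identity, overlaps and promoters came from the TAIR10.1 annotation, matched by locus ID (56 of 56 members). Python 3.11.15, pandas 2.3.3, NumPy 2.4.6, SciPy 1.17.1, Biopython 1.88 and matplotlib 3.10.9 were used.

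The members, lists and tests were chosen with earlier results of these data known. Values were planned in full for the 12 called members with the smallest p and the 5 highest and lowest members per kilobase. The 5 families with the widest gaps were planned too, and up to 3 genes per list by p. The list genes that were named do not follow that order throughout. A few members are counted above and not reported by name here. Further called members and paralogs were named after their values were seen. Alternatives were a stricter FDR of 0.01, a minimum log2 fold change of 1 and a test against a change of 25%, taken as 1.25-fold in either direction. Further alternatives were centring on the median gene or on equal group totals and a minimum mean count of 100. Leaving out overlapping and near-identical members was an alternative chosen after seeing the data.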

Additional observations from a re-analysis of the deposited data

Results flagged for a closer look

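For 9 members and 13 genes of the related lists, named in this section, the effects of the mutants differed on the log2 scale. The test was that of the difference itself, 6x_pfd minus pfd4. The 13 are not all the list genes that passed. On the 3 lists of genes that build the ribosome, 40 of 44 were called higher, beside 11.8% of all genes. Genotype, age and light regime cannot be told apart in this test. In the large subunit, AT3G09630 differed by 0.63, AT5G02870 by 0.47, RPL23AB by 0.53, AT3G11250 by 0.38, RP1 by 0.37 and AT3G09200 by 0.33. In the small subunit, RPSAb differed by 0.84, AT5G39850 by 0.81 and RPS6 by 0.34. Adjusted p ran from 1.66e-05 (AT3G09630) to 0.0488 (RPS6) over the members.

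Among genes that build the ribosome, NUC2 differed by 2.64, APUM24 by 1.12, NRPA1 by 0.998, CBF5 by 0.97, FIB2 by 0.95, NRPA2 by 0.91, RRP5 by 0.83 and NUC1 by 0.81. S6K1 differed by 0.65, EBP1 by 0.54 and RACK1C by 0.58. MRF1 (-0.72) and TCTP (-0.45) differed in the opposite direction.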

How the results depend on the processing

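The count of 0 members called in pfd4 held with centring on the median gene, with equal group totals and with a minimum mean count of 100. The other alternatives are stricter or leave members out, so they could not have added a call. In 6x_pfd, the 23 members called higher became 10 at an FDR of 0.01 (17.9%, beside 12.5% of all genes called higher). They became 0 with a minimum log2 fold change of 1 (beside 3.79% of all genes). In the test against a change of 25% they became 0 (beside 5.05%), and with equal group totals 43 (76.8%, beside 24%). They became 12 of 41 without overlapping or near-identical members, where fewer members were counted. Centring on the median gene gave 23 and a minimum mean count of 100 gave 22, and no alternative called a member lower. In the difference between mutants, the 10 members became 5 at an FDR of 0.01 and 21 with equal group totals. They became 9, 9 and 7 under the other alternatives. At an FDR of 0.01 the members' share called higher, 8.93%, was near that of all genes, 7.76% higher and 8.2% lower. Under equal group totals, RPL5B moved from -0.007 to 0.000868 in pfd4 and RPL10B from -0.07 to 0.00376 in 6x_pfd, neither called. Equal totals shift the fold changes by the log2 ratio of totals, -0.008 in pfd4 and -0.08 in 6x_pfd. Other causes were not tested. No paired analysis was possible because the deposited tables hold no values per library, and for the same reason leaving out each replicate, edgeR and a refit in DESeq2 were not run. Precision is known only from the SE, which limits what can be said of members with low counts.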

Other observations

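Genes that work on the ribosome without being part of its core were described by the same counts. RACK1 is a scaffold protein on the small subunit. All 3 RACK1 genes rose in 6x_pfd, among them RACK1A by 0.25 ± 0.09 (adjusted p = 0.0145), and RACK1C by 0.36 ± 0.13 (adjusted p = 0.0161), by the authors' deposited table. In pfd4 RACK1A stood at -0.02 ± 0.07 and RACK1C at -0.22 ± 0.10 in the authors' deposited table, neither called. TCTP, a protein linked to growth, went the other way in 6x_pfd. The authors' deposited table puts it at -0.35 ± 0.11 (adjusted p = 0.00639), beside 0.11 ± 0.10 in pfd4.

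Of 17 translation factor genes, 7 rose (41.2%) and 2 fell (11.8%) in 6x_pfd, beside 16.9% and 16.8% of all genes. In pfd4, 2 fell (11.8%, beside 3.81% of all genes) and none rose. None of the 4 genes for ubiquitin fused to a ribosomal protein was called in either mutant by the authors' DESeq2 test, with 1 and 0 at an unadjusted p below 0.05 in 6x_pfd and pfd4. NAC082, a transcription factor of the response to ribosomal stress, rose in 6x_pfd by 0.21 ± 0.08 (adjusted p = 0.0322) and stood at -0.23 ± 0.10 (adjusted p = 0.138) in pfd4, in the authors' deposited table.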
